A study of Homo sapiens with 4 samples.

Results

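KRT75, DLX5 and EPHA3 were the only genes expressed in JR1 cells and nearly silent in RD cells by a pair of limits on the deposited values. JR1 and RD are established lines of fusion-negative rhabdomyosarcoma (FN-RMS), a soft tissue tumor of muscle-like cells that lacks the PAX-FOXO1 fusion. Each line was infected with a lentivirus that expressed either a non-targeting shRNA (shSCR) or the hairpin shSKP2.2 against SKP2 (shSKP2 below), the substrate receptor of a ubiquitin ligase, and infected cells of both groups were selected with puromycin. The labels give the shSCR cells as wild type and the others as SKP2 knockdown, with no further allele or drug. Each line and condition gave 1 RNA-seq library, 4 libraries in all, measured as TPM, a level that is corrected for transcript length and has an equal sum in each library. No difference between libraries therefore has a replicate check, no p-value is given, and 1 hairpin and 1 culture stand for each condition.

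The set was selected on the TPM values themselves. A gene entered when it had at least 5 TPM in both JR1 libraries and under 0.5 TPM in both RD libraries, after short structural RNA genes had been taken out by symbol. The rule found 3 of 39323 genes. Among the 7645 genes that met the JR1 minimum they were 0.0392%, and 7539 of those genes (98.6%) also had at least 5 TPM in an RD library. The difference between the lines is thus how the set was chosen, and it is described below without a test. In RNA from bulk cultures, fewer expressing cells and less RNA per cell cannot be told apart.

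KRT75 encodes a type II keratin, an intermediate filament protein best known from the companion layer of the hair follicle, where it pairs with a type I keratin. DLX5 encodes a homeodomain transcription factor of the distal-less family, which patterns the branchial arches, limbs and forebrain and takes part in bone formation. EPHA3 encodes a receptor tyrosine kinase that binds membrane-anchored A-type ephrins, among them ephrin-A5, on neighboring cells and guides cell contact and migration.

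The promoters of KRT75 and EPHA3 are shown because position and sequence were not used in the choice of genes, and 2 of the 3 genes matched an entry in the RefSeq promoter table (GRCh38.p14). Each line gives the 250 bases before the annotated start, read 5′ to 3′ on the strand of the gene. KRT75 is on the minus strand and its stretch is chr12:52434372-52434621, while EPHA3 is on the plus strand and its stretch is chr3:89107371-89107620. Capitals mark the words CCGCCC and ATAAAA in KRT75 and CAGCTG in EPHA3.
KRT75: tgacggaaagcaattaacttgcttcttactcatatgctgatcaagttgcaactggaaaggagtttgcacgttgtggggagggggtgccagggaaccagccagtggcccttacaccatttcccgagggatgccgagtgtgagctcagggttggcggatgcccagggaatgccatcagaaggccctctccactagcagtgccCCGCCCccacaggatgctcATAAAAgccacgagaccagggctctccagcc
EPHA3: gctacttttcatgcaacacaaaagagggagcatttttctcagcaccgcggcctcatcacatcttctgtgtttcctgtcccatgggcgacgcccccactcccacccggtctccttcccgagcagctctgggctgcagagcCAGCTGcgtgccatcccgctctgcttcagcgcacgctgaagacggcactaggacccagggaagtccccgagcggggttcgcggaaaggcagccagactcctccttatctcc

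Words were searched on both strands, and positions count back from the base before the start. The KRT75 promoter held ATAAAA, a word like the TATA box, at -31 to -26, and CCGCCC, a GC box word, at -50 to -45. ATAAAA was present in 15.2% of all 27305 promoters of that length and in 7.43% of the 10090 promoters of genes averaging 1 TPM or more, and CCGCCC in 42.3% and 67.5%. The EPHA3 promoter held the E-box word CAGCTG at -111 to -106, as did 13.8% of all promoters and 12.9% of those of expressed genes. Neither stretch held TATAAA (11.1% of all promoters) or the E-box word CACCTG in either orientation (17.5%). The 2 stretches differed in base composition. The KRT75 promoter had a GC content of 57.2%, 7 CpG dinucleotides and an observed over expected CpG ratio of 0.342. The EPHA3 promoter had a GC content of 61.2%, 15 CpG and a ratio of 0.665, which made it CpG-rich at limits of 0.6 for the ratio and 50% for GC. CpG-rich promoters were 44.9% of all and 77.5% of those of expressed genes. A matching word is a description of the sequence and not evidence of binding.

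KRT75 (chromosome 12, 52424070 to 52434371, GRCh38, minus strand, 9 exons) had 43.99 TPM in JR1 shSCR, 24.99 in JR1 shSKP2, 0.06 in RD shSCR and 0.47 in RD shSKP2. It had the highest level of the 3 genes in both JR1 libraries, above the median of 17.94 TPM in shSCR and 14.94 TPM in shSKP2 over the 7645 genes at the JR1 minimum. DLX5 (chromosome 7, 97020396 to 97024831, minus strand, 3 exons) had 7.53 TPM in JR1 shSCR, 7.87 in JR1 shSKP2, 0.42 in RD shSCR and was listed at 0 in RD shSKP2. EPHA3 (chromosome 3, 89107621 to 89482134, plus strand, 17 exons) had 7.18, 10.1, 0.09 and 0.04 TPM in the same order. DLX5 and EPHA3 lay below the median of the expressed genes in both JR1 libraries, and their order changed between them, with DLX5 ahead in shSCR and EPHA3 ahead in shSKP2. By mean JR1 level, KRT75 was at percentile 76.9 of those genes, DLX5 at 12.3 and EPHA3 at 18.1.

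The limits decided which genes belonged. Just under the JR1 minimum were COL1A2, a fibrillar collagen chain (5.24, 4.63, 0.09 and 0.28 TPM in JR1 shSCR, JR1 shSKP2, RD shSCR and RD shSKP2), ZNF385B (4.27, 9.15, 0.07 and 0.31) and TMEM47 (4.27, 5.15, 0.22 and 0.22). Just over the RD limit were GRAMD1B (6.3, 5.73, 0.56 and 0.5), the long non-coding RNA LHFPL3-AS2 (6.78, 5.03, 0.43 and 0.73) and COL6A3, a collagen VI chain (81.03, 39, 0.9 and 0.1). COL6A3 had a higher level in both JR1 libraries than KRT75 and was kept out by the 0.9 TPM of RD shSCR. KRT75, with 0.47 TPM in RD shSKP2, stood just inside the same limit. A further look at genes under 0.5 TPM in both RD libraries found 19 with 5 TPM in 1 JR1 library only, 7 in shSCR and 12 in shSKP2. The 12, named here after their values were seen, were SPRR2D (0.3 TPM in JR1 shSCR and 28.29 in JR1 shSKP2), MYBPC1 (0.01 and 10.04), GJA5 (0.1 and 7.13), CASQ2 (0.18 and 6.39), TRDN (0.47 and 5.84), CACNG1, IRX6, KLHL31, TMEM47, TNNT3, VAV3 and ZNF385B. Some of them differed little, such as IRX6 (3.66 and 5.74) and VAV3 (3.16 and 5.49). The 7, likewise named afterwards, were CTAG1B (12.24 and 0), IFI27 (10.44 and 0.71), H1-1 (8.26 and 1.24), COL1A2, CXCL12, FAIM2 and LINC01173.

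The same limits with the lines exchanged found 9 genes expressed in RD only, ALDH1A2, DHRS3, GFRA1, MAGEA9, MARK1, POSTN, PTN, ROR2 and TMEM200A, of 8315 genes with at least 5 TPM in both RD libraries. The scale of the libraries differed. Short structural RNAs took 57.1% and 64.9% of the TPM in JR1 shSCR and shSKP2 against 50.1% and 62.3% in RD, and of the 12985 genes whose mean over all libraries was 1 TPM or more, called tested genes below, both JR1 libraries were above both RD libraries in 9.61% while both RD libraries were above both JR1 libraries in 34.5%. When those RNAs were left out and each library was scaled back to its former sum, the levels in the order above were 102.6, 71.2, 0.120 and 1.25 TPM for KRT75, 17.6, 22.4, 0.842 and 0 for DLX5, and 16.7, 28.8, 0.180 and 0.106 for EPHA3. KRT75 and DLX5 then exceeded the RD limit and left the set, which held 6 genes: EPHA3, CXCL12, VAV3, LINC01173, FBXL13 and FOXS1. EPHA3 was the gene common to both scales.

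Ratios between the lines show how far the 3 genes stood apart, and since the limits already imply a ratio over 10-fold, their high places follow from the choice of genes. Of the 7645 genes at the JR1 minimum, the lower JR1 library exceeded the higher RD library in 784, by more than 2-fold in 108, by more than 5-fold in 14 and by more than 20-fold in 4. EPHA3 had the largest such ratio (79.8), KRT75 the second (53.2) and DLX5 the fifth (17.9). Between them were COL6A3 (43.3) and VGF (25.2), a neuropeptide precursor. The others over 5-fold were GRAMD1B, IGFBP3, LAMB3, LHFPL3-AS2, PEG10, LINC02392, LINC02154, MYMK and SGCE, at 5.57 to 10.2, and these names were read off after the values were seen. MYMK, the fusion protein myomaker of muscle precursors, was the one gene of the skeletal muscle marker list among them (12.04, 18.87, 1.22 and 2.05 TPM). For the 3 genes these ratios rest on RD values under 0.5 TPM, whose precision is unknown because TPM keep no read counts.

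Each gene was set beside its relatives, which were named because of the membership of the 3 genes. Relatives and markers were compared on the deposited scale only. On it 9.61% of all tested genes were higher in both JR1 libraries and 34.5% in both RD libraries. After rescaling without short structural RNAs these shares were 16.4% and 26.7% of all genes. Calls of a higher level in RD that rest on a small margin can therefore turn with the scale. No other listed keratin met the limits that KRT75 met. Of 55 listed keratin genes, 28 were at 0 in all 4 libraries and 6 reached 1 TPM in at least 1 library. Of these 6, both JR1 libraries were above both RD libraries in KRT75, KRT80 (15.27, 13.68, 7.73 and 10.89 TPM in JR1 shSCR, JR1 shSKP2, RD shSCR and RD shSKP2) and KRT7 (1.23, 0.96, 0.75 and 0.52). In the other 3, KRT18, KRT8 and KRT10, both RD libraries were higher on the deposited scale. The margins of KRT8 and of KRT10 (2.44, 2.4, 3.31 and 2.79 TPM) are small enough for rescaling to turn them. Beside these counts stand the 9.61% and 34.5% of all tested genes, which had to average 1 TPM. The place of KRT75 in the first count was fixed by the rule. KRT18, the type I keratin of simple epithelia that is also found in some non-epithelial tumors, was the most abundant keratin (80.83, 81.8, 201.66 and 161.51 TPM), and its usual partner KRT8 had 3.04, 6.58, 7.67 and 9.06 TPM.

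The genomic neighbors of KRT75 were silent. It lies in the type II keratin cluster, and the 5 nearest listed genes on each side were all keratins, KRT81, KRT83, KRT85, KRT84 and KRT82 on one side and KRT6B, KRT6C, KRT6A, KRT5 and KRT71 on the other. None was above 0.05 TPM in any library. KRT6A, KRT6B and KRT6C were listed at 0 in all 4, and because these copies are nearly identical the assignment of reads among them by any counting is uncertain. Of 20 epithelial markers, 6 reached 1 TPM in a library. Of these 6, none had both JR1 libraries above both RD libraries and 3 had the reverse, beside 9.61% and 34.5% of all tested genes, which had to average 1 TPM. The summed TPM of the 20 were 94.7 and 93.4 in JR1 against 221 and 178 in RD, and most of each sum was KRT18. CLDN4 (4.12, 1.01, 5.76 and 1.63 TPM), MUC1 (3.11, 1.97, 2.04 and 2.71) and SPINT1 (2.11, 1.14, 0.82 and 1.78) were present in both lines with overlapping values. Within each condition, however, CLDN4 was higher in RD than in JR1, while MUC1 and SPINT1 were higher in JR1 in shSCR and in RD in shSKP2. The defining markers EPCAM (at most 0.16 TPM), CDH1 (at most 0.03), KRT5 (at most 0.02) and KRT14 (0) were at or near 0 in all 4 libraries.

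EPH receptors bind ephrins on adjacent cells, so receptors and ligands are described together. Of 14 listed EPH receptors, 6 reached 1 TPM in at least 1 library. EPHB4 (107.33, 75.56, 56.94 and 42.85 TPM) and EPHB2 (1.29, 1.87, 0.51 and 0.54) were, like EPHA3, higher in both JR1 libraries. EPHB3 was higher in both RD libraries on the deposited scale (11.93, 11.76, 15.04 and 12.03 TPM), but by a margin that rescaling can turn. The groups overlapped for EPHA2 (42.06, 66.08, 60.9 and 106.77 TPM) and EPHA7 (7.11, 16.76, 15.44 and 14.74). Within each condition, however, EPHA2 was higher in RD than in JR1. Thus RD, with next to no EPHA3, had EPHA2 and EPHA7 at levels that overlapped those of JR1. All 8 ephrins reached 1 TPM in a library. On the deposited scale none was higher in both JR1 libraries and 4 were higher in both RD libraries. Of the 4, EFNB1 had a small margin (3.35, 3.59, 3.71 and 4.49 TPM) that rescaling can turn. Over all tested genes the shares were 9.61% and 34.5%. The tested genes met a stricter limit, a mean of 1 TPM. EFNA5, which encodes ephrin-A5, had 8.68, 6.14, 13.37 and 9.64 TPM, and EFNA4 had 8.62, 8.65, 13.63 and 18.22 TPM, so A-type ligands were present in both lines.

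EPHA3 lies alone. The nearest listed genes were 640 kb away on one side (CSNKA2IP) and 1891 kb on the other (LOC101930420), and both were at 0 in all 4 libraries. Within 5 Mb on each side there were 5 tested genes, of which 1 had both JR1 libraries above both RD libraries, too few to describe the region further.

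**Figure D1:**
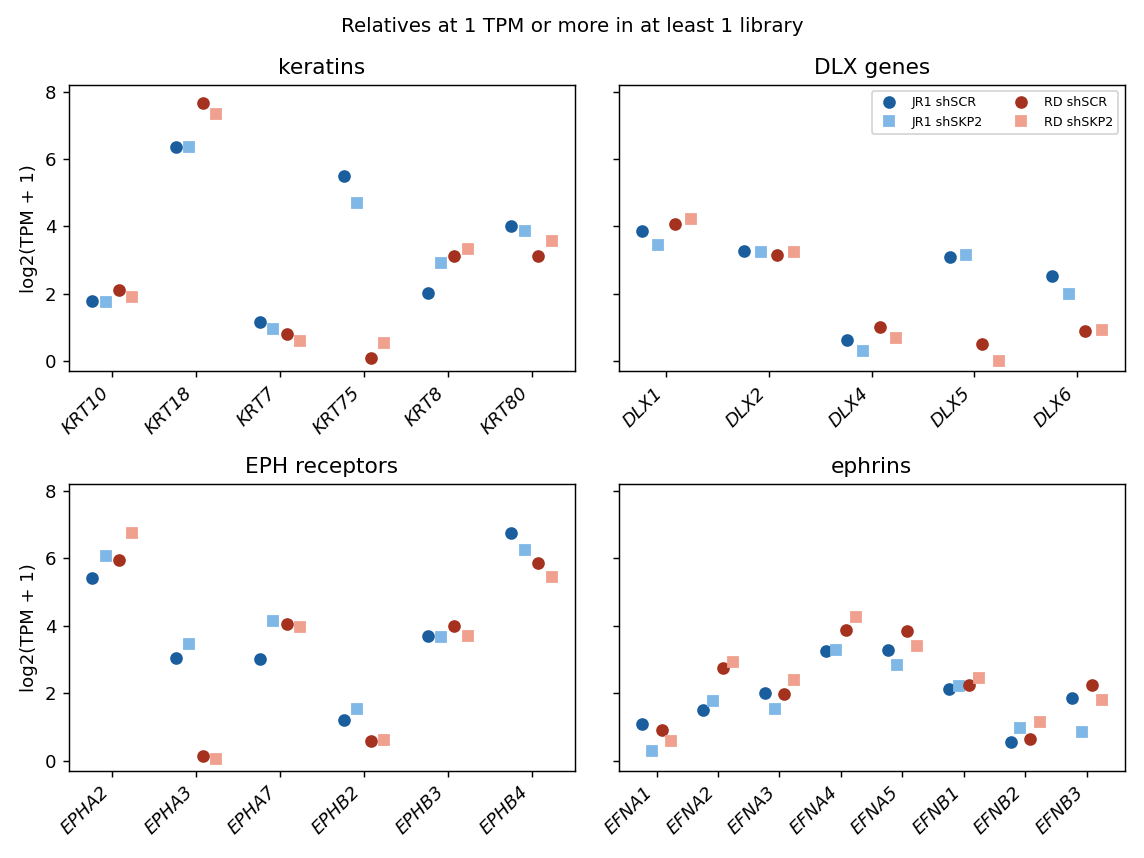
Level of keratins, DLX genes, EPH receptors and ephrins that reached 1 TPM in at least 1 library, as log2(TPM + 1) (1 point is 1 library, JR1 in blue and RD in red, circles shSCR and squares shSKP2). KRT75, DLX5 and EPHA3 were chosen for the gap between the lines. Among their relatives KRT18 and 4 ephrins are higher in both RD libraries on the deposited scale.

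DLX5 was accompanied by the gene next to it. DLX genes sit in pairs, and DLX6 (chromosome 7, 97005553 to 97011040), the partner of DLX5, lies 9.36 kb away. DLX6 had 4.78 TPM in JR1 shSCR, 3.02 in JR1 shSKP2, 0.88 in RD shSCR and 0.9 in RD shSKP2. DLX6-AS1, a long non-coding RNA that overlaps DLX6 in antisense, had 1.38, 0.87, 0.43 and 0.15 TPM. Both were higher in both JR1 libraries, but since the sources used here do not state whether counting used the strand, reads of DLX6 and DLX6-AS1 cannot be told apart with certainty. The pair on chromosome 2 did not share the pattern. DLX1 was higher in both RD libraries (13.53, 9.99, 16.01 and 17.64 TPM), and DLX2 had 8.61 and 8.41 TPM in JR1 against 7.91 and 8.39 in RD, so the nearest libraries were almost level.

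Most genes around DLX5 were also higher in JR1. The region was examined because DLX6 beside DLX5, and COL1A2, SGCE and PEG10 a few Mb away, had been noticed to be higher in JR1, so the comparison was chosen after the values were seen. Among the 111 tested genes within 5 Mb on each side of DLX5, itself left out, both JR1 libraries were above both RD libraries in 83 (74.8%) and both RD libraries were above in 2 (1.80%). Over all tested genes these shares were 9.61% and 34.5%. The median log2 ratio of JR1 over RD, on TPM + 1, was 0.78 in shSCR and 0.87 in shSKP2, against -0.23 and -0.17 over all tested genes. Genes within 5 Mb of KRT75 differed from all tested genes in the same direction but less. There 24 of 158 (15.2%) were higher in both JR1 libraries and 31 (19.6%) in both RD libraries, with medians of -0.06 and 0.02. After rescaling without short structural RNAs, 53 of 174 genes around KRT75 (30.5%) were higher in both JR1 libraries, against 16.4% of all genes. Windows of 1, 5 and 10 Mb were computed around all 3 genes. Around DLX5 the share was 50% of 6 genes within 1 Mb and 71.2% of 163 genes within 10 Mb, and after rescaling without short structural RNAs it was 79% of 119 genes within 5 Mb, against 16.4% of all genes.

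The high shares ended within the chromosome. In steps of 5 Mb from the start of DLX5 in increasing coordinates, 62 of 85 genes were higher in both JR1 libraries from 0 to 5 Mb (72.9%), 29 of 38 from 5 to 10 Mb (76.3%), and 2 of 16 from 10 to 15 Mb (12.5%). Gene by gene, the drop on this side lay inside the step from 5 to 10 Mb. KMT2E-AS1, at 7.99 Mb, had log2 ratios of JR1 over RD of 1.89 in shSCR and 1.42 in shSKP2. The next tested gene, SRPK2 at 8.09 Mb, had -0.22 and 0.01. In decreasing coordinates the shares were 20 of 25 genes from 0 to 5 Mb (80%), 5 of 15 from 5 to 10 Mb (33.3%), 0 of 3 from 10 to 15 Mb and 0 of 14 from 15 to 20 Mb. The stretch from 20 to 25 Mb on that side had none of 51 genes higher in both JR1 libraries and 45 (88.2%) higher in both RD libraries. Over whole chromosomes the share higher in both JR1 libraries ran from 3.37% (chromosome 22) to 27.5% (chromosome 21), and chromosome 7 had 21.3%. The cause of these shares was not tested.

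The genes of the region had varied functions. SGCE, a sarcoglycan, had 28.76, 31.23, 5.16 and 3.51 TPM, and the adjacent imprinted gene PEG10 had 312.89, 286.55, 37.02 and 44.88 TPM. VGF, 4.14 Mb from DLX5, had 517.61, 350.59, 7.42 and 13.89 TPM. Of the 14 genes with a ratio over 5-fold named above, 3 besides DLX5 lay in this window, VGF, PEG10 and SGCE. The window held 111 of the 12985 tested genes, DLX5 left out. LHFPL3-AS2, another of the 14, lay outside it, 7.87 Mb from DLX5. The cell cycle kinase gene CDK6 (64.02, 90.08, 38.45 and 50.34 TPM), the proteasome subunit gene SEM1 (383.9, 289.98, 133.36 and 104.71) and EPHB4, a relative of EPHA3 that lies 3.78 Mb from DLX5, were also higher in both JR1 libraries. Exceptions were SLC25A13, a mitochondrial aspartate-glutamate carrier (22.29, 14.79, 32.2 and 24.21 TPM), and SRRT (45.57, 36.95, 60.27 and 49.01). The log2 ratio of DLX5 itself, which the choice of genes fixed as high, was 2.59 in shSCR and 3.15 in shSKP2.

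**Figure D2:**
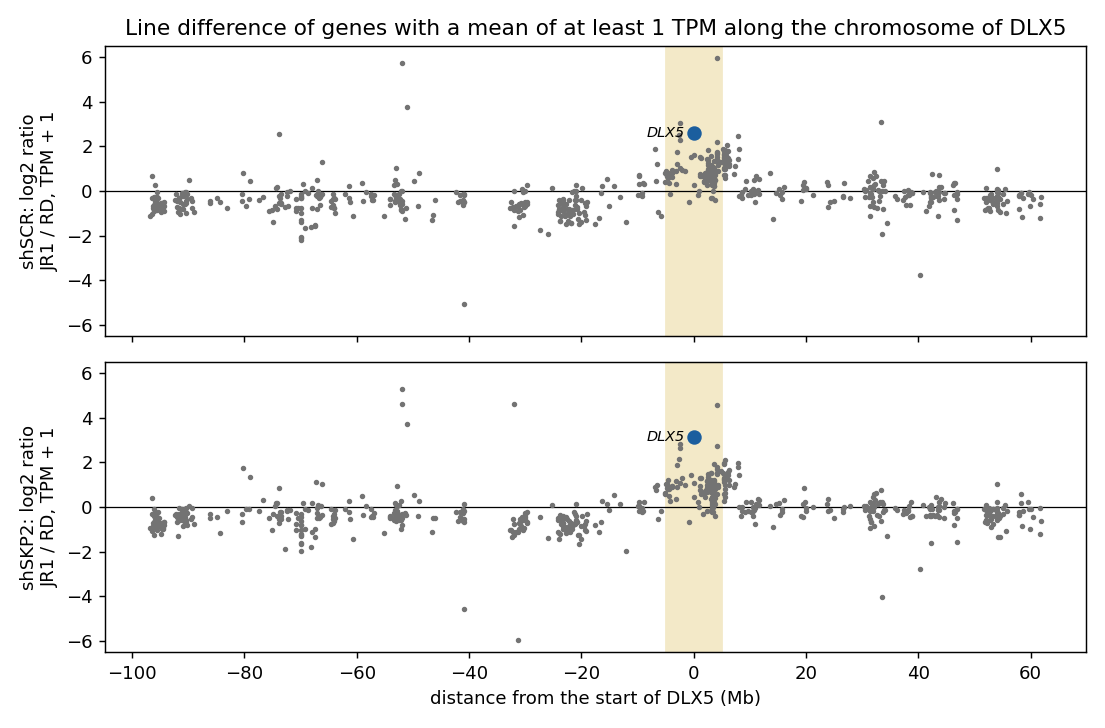
Log2 ratio of TPM + 1 in JR1 over RD for tested genes on the chromosome of DLX5, by distance in Mb from the start of DLX5, in shSCR (top) and shSKP2 (bottom), where 1 point is 1 gene, the band marks 5 Mb on each side and DLX5 is drawn large. Genes in the band lie mostly above 0, with medians of 0.78 and 0.87. Outside it the ratios drop between 7.99 and 8.09 Mb to the right, and the high share ends between 5 and 10 Mb to the left.

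The knockdown of SKP2 was the comparison that the choice of genes did not use directly, although the demand for 5 TPM in both JR1 libraries limits a fall. SKP2 itself had 46.47 TPM in JR1 shSCR and 2.72 in JR1 shSKP2, and 92.84 and 7.4 TPM in RD, a log2 change of -3.67 and -3.48. Changes are log2 ratios of TPM + 1 in shSKP2 over shSCR, and a gene was counted as changed at 1 or more in either direction. Of the 12985 tested genes 1.78% rose and 9.05% fell in JR1. None of the 3 genes did either, but for DLX5 and EPHA3, with shSCR levels close to the JR1 minimum, the rule left no room for a fall of that size. The change of KRT75 was -0.79, a ratio of TPM of 0.568, that of DLX5 was 0.06 and that of EPHA3 was 0.44. The median of the 3 was 0.06, beside -0.21 over all tested genes. At percentiles of 14.8, 73.4 and 91.8 among the tested genes, the changes of KRT75, DLX5 and EPHA3 were spread over the distribution rather than grouped.

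These values depended on the scale. Centred on the median of all tested genes, the changes in JR1 were -0.58 for KRT75, 0.27 for DLX5 and 0.65 for EPHA3. After removal of the short structural RNAs and rescaling they were -0.52, 0.34 and 0.75, with a median of 0.03 over all genes. KRT75 was the lowest and EPHA3 the highest of the 3 on each scale. At a limit of 1.5-fold on the deposited scale KRT75 counted as a fall, as did 23.4% of all tested genes, and EPHA3 did not count as a rise. On the centred and rescaled values both calls turned, with EPHA3 past that limit and KRT75 just short of it.

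In RD the 3 genes could not change by 1 on the deposited scale, because the rule held both RD values under 0.5 TPM, and 1.08% of all tested genes rose and 7.37% fell. The values were 0.47 for KRT75 (0.06 and 0.47 TPM), -0.51 for DLX5 (0.42 and 0) and -0.07 for EPHA3 (0.09 and 0.04). All 3 signs were opposite to those in JR1, as they were for 21.3% of the tested genes, but the sign of EPHA3 in RD turned to 0.20 when centred, and KRT75 in RD was at 1.00 when rescaled. Levels this low allow no reading of a response in RD.

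Both lines carried the markers of their labelled origin. MYOD1 and MYOG, the transcription factors that mark FN-RMS as muscle-like, had 100.64 and 53.97 TPM in JR1 shSCR and 86.98 and 31.57 TPM in RD shSCR, and DES, the muscle intermediate filament gene, had 51.31 and 39.27 TPM, whereas MYF5 was listed at 0 in all 4 libraries. Of 20 skeletal muscle markers 18 reached 1 TPM in a library, and of these 18, both JR1 libraries were above both RD libraries in 7 and below them in 1, beside 9.61% and 34.5% of all tested genes. Of 16 fibroblast and smooth muscle markers 11 reached 1 TPM, and of these 11, 5 were higher in both JR1 libraries and 3 in both RD libraries. Their summed TPM over the 16 were 1385 and 607 in JR1 shSCR and shSKP2 and 1456 and 1500 in RD, with FAP at 0. Most of each sum was COL3A1 (903.55, 509.28, 1068.6 and 1382.87 TPM) and COL1A1 (386.79, 65.82, 306.97 and 76.97). KRT75, DLX5 and EPHA3 were in none of the 10 lists of markers and rhabdomyosarcoma genes, and the part of other cell types in their levels was not tested. The Pearson correlation of log2(TPM + 1) over the 12985 tested genes was 0.928 between the JR1 libraries, 0.944 between the RD libraries, 0.927 between the lines in shSCR and 0.934 between the lines in shSKP2, a description over genes of libraries that share their scale, by which the lines were about as alike as the conditions within a line.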

How the data were processed

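RNA from JR1 and RD cells with shSCR or shSKP2 was sequenced by the authors as directional poly-A libraries. Per the submitters' notes, reads were aligned to GRCh38 with STAR 2.7.9a and TPM were computed with RSEM 1.3.2. The deposited TPM are given to 2 decimals, with a sum of 1e+06 per library. TPM keep no read counts, so depth and the precision of a value are unknown.

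TPM were used as deposited, without further normalization. Groups came from the sample titles, with 1 library per line and condition, so no test was made. Tested genes averaged 1 TPM or more across the 4 libraries, and changes used a pseudocount of 1 TPM, which understates the change of low genes. Relatives and markers were counted at 1 TPM in at least 1 library, so the shares of tested genes set beside them rest on a stricter limit. Alternatives were a pseudocount of 0.1, centring, other limits, and removal of 2653 short structural RNA genes with rescaling. Windows around the genes were added after seeing the data. The members and gene lists were chosen with earlier results of these data known. Genes were to be named by rule as members, the 3 nearest outside each limit, and SKP2, MYOD1, MYOG and DES. Relatives, neighbors, markers and other genes fall outside it. The selection and change steps were tested on simulated data. Python 3.11.15, numpy 2.4.6, pandas 2.3.3 and matplotlib 3.10.9 were used.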

Additional observations from a re-analysis of the deposited data

Results flagged for a closer look

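The change after SKP2 knockdown had opposite signs in JR1 and RD for all 3 genes on the deposited scale, and the difference was not tested because there is 1 library per line and condition. The change in JR1 minus that in RD was -1.26 for KRT75, 0.56 for DLX5 and 0.51 for EPHA3 on the log2(TPM + 1) scale. The RD values behind them were all under 0.5 TPM. When centred on the median of all tested genes, EPHA3 had the same sign in both lines, at 0.65 in JR1 and 0.20 in RD.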

How the results depend on the processing

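The number of genes expressed in JR1 only, 3 as reported, was 6 without short structural RNA genes and with TPM rescaled, 17 at a JR1 minimum of 2 TPM, 1 at 10 TPM (KRT75), 6 at an RD limit of 1 TPM, 1 at 0.1 TPM (EPHA3) and 0 with RD listed at 0. The median change in JR1, 0.06 as reported, was 0.063 with a pseudocount of 0.1 TPM, 0.27 when centred, 0.34 when rescaled and -0.79 for the single gene with at least 10 TPM. The count of falls went from 0 to 1 at a limit of 1.5-fold, and the count of rises stayed 0 under each alternative taken singly. The 1.5-fold limit was counted on the deposited scale only. On the centred and rescaled values EPHA3, at 0.65 and 0.75, was past that limit, and KRT75, at -0.58 and -0.52, was just short of it. The share of CpG-rich promoters went from 50% to 0% of 2 with stricter limits. No member had another as one of its 1, 2 or 5 nearest genes on each side. With no filter on low values 1.14% of 23854 genes rose and 5.11% fell in JR1. No paired analysis was possible because each group had 1 library, and for the same reason no replicate could be left out. Depth is unknown and sets an unknown limit on the RD values.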
